A study of Mus musculus with 6 samples.

Results

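The 10 genes Fat2, Zic1, Zic2, En2, Pcp2, Calb1, Car8, Cbln1, Cbln3 and Neurod1, known as markers of cerebellar neurons, were examined in whole brains of mice heterozygous for a disruption of the periphilin gene (Pphln1) and of their wild-type littermates. The members were all probe sets that the platform annotation assigns to exactly 1 gene with 1 of these symbols. They numbered 22 of 45037 probe sets, and each of the 10 genes had at least 1. The heterozygous group comprised 3 periphilin+/- knockout mice and the wild-type group 3 littermates of strain C57BL/6. Per the labels, all were male and 2 months old, and each brain was hybridised to its own Affymetrix array. The position of the disruption within Pphln1 and the way it was made are not given in the sources used here. Each value is a probe-set intensity on a linear scale that the authors had brought to a common level per array. An intensity also depends on the probes, so brains were compared at the same probe sets, singly or in sums and means, and genes were not compared in level.

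The cerebellar cortex is built on a circuit of 2 principal neurons. Granule cells, the most numerous neurons of the brain, receive mossy fibre input and send parallel fibres to Purkinje cells, whose axons are the sole output of the cortex. Cbln1 and Cbln3 encode secreted proteins of granule cells, and Cbln1 links presynaptic neurexin to the glutamate receptor GluD2 at the parallel fibre synapse. Several of these genes are also active elsewhere: Calb1 in cortex, hippocampus and striatum, Neurod1 in the dentate gyrus and the endocrine pituitary, En2 in the midbrain, and Zic1 in the olfactory bulb and the meninges. In RNA of a whole brain, fewer cells of a type and less RNA per cell cannot be told apart.

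Periphilin is a subunit of the HUSH silencing complex. At its brighter probe set 1434822_at, Pphln1 measured 353, 269 and 338 in heterozygous brains and 295, 290.2 and 314 in wild-type brains, and its log2 difference was 0.08 (SE 0.11, adjusted p = 0.969 by limma). At 1435766_at it measured 30.6, 44.4 and 36.6 in heterozygous brains and 63.2, 47.3 and 46.3 in wild-type brains, without overlap, and the log2 difference was -0.36 (SE 0.18, adjusted p = 0.956 by limma). The array thus did not call the targeted gene lower, and where its probes lie relative to the disruption is not known here. Log2 values of any pair of arrays correlated at 0.978 to 0.985 across probe sets. Transcripts of pituitary hormones differed between the brains, and the part of pituitary tissue in this was not tested. The hormone gene Pomc measured 62.2 to 130.3 in heterozygous brains and 108 to 4380.1 in wild-type brains, with the high value in wild type 1. The hormone gene Prl was high in heterozygous 3, at 3729.5, and in wild type 1, at 8306. The cerebellum was represented on every array: Gabra6, a GABA-A receptor subunit of granule cells, measured 2278, 2289 and 2263 in heterozygous brains and 2080.0, 2408 and 1852.5 in wild-type brains at 1417121_at, where the genotypes overlapped. At 1451706_a_at it measured 748, 727 and 758.5 in heterozygous brains and 642, 712.5 and 606 in wild-type brains, without overlap, and its log2 difference was 0.19 (SE 0.09, adjusted p = 0.956 by limma).

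RefSeq promoter sequence (GRCm38.p6) was at hand for 5 of the 10 genes, and for 4 of them, Zic1, Pcp2, Cbln3 and Neurod1, it begins at the edge of the RefSeq gene interval. The sequence of Pcp2, a gene largely selective for Purkinje cells within the brain, is set beside those of the granule cell genes Cbln3 and Neurod1. Each line holds the 250 bases before the start, 5′ to 3′ on the strand of the gene, which is the minus strand in each case. Capitals mark every CANNTG (E-box, the kind of site that basic helix-loop-helix proteins such as Neurod1 bind) and every AGGTCA on either strand, the half-site of nuclear receptors such as Rora, a factor that Purkinje cells need.
Pcp2, chr8:3625548-3625797: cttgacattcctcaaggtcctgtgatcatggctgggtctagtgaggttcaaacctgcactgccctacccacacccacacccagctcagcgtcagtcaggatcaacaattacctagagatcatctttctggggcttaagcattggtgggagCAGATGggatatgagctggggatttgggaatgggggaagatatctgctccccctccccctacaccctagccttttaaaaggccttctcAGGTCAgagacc
Cbln3, chr14:55884257-55884506: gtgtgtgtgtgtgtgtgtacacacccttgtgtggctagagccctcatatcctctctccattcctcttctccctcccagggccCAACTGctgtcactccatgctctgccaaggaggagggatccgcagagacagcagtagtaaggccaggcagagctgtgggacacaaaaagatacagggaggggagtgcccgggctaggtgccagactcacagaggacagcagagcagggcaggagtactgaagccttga
Neurod1, chr2:79456637-79456886: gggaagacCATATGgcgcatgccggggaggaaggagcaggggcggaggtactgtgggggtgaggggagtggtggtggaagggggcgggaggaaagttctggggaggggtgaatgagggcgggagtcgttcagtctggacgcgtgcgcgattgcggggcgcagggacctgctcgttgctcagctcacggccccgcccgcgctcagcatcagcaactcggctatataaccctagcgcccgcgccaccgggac
All 4 windows held an E-box, as did 66.2% of the windows of all 32851 RefSeq starts. AGGTCA was found for Pcp2 alone of the 4, and in 14.0% of all windows. A match of letters is a description and does not show that a factor binds, and its absence covers only these letters in this window.

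Of the 22 probe sets, 21 passed the filter on dim signal, a mean signal of 18.4. None of the 21 was called between genotypes (limma, Benjamini-Hochberg over all 27022 probe sets tested, threshold 0.05), where 0.0148% of all tested probe sets were called. The adjusted p of the members ranged from 0.956 to 0.999. In sign, 14 were higher and 7 lower in heterozygous brains (52.3% of all tested probe sets were higher), with a median log2 difference of 0.05 on the log2(value + 16) scale, and the median over all tested probe sets was 0.01. One of the 21, for Fat2, had an unadjusted limma p below 0.05, and 4.83% of all tested probe sets did. The genotypes did not overlap at 3 probe sets that were higher, for Fat2, Zic2 and Cbln3, and at 1 that was lower, for Calb1. These are 4 of 21 probe sets, and 10.2% of all tested probe sets did not overlap, 5.43% on the higher side and 4.81% on the lower side. Probe sets of 1 gene share their target and are not independent.

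**Figure D1:**
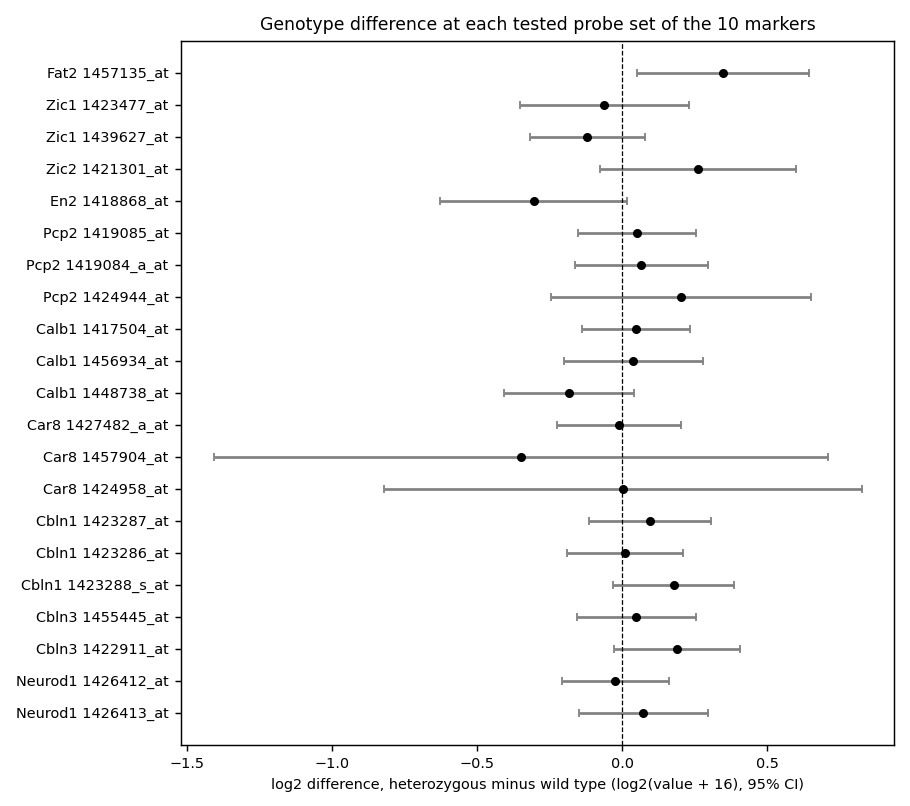
Log2 difference between heterozygous and wild-type brains (x axis, log2(value + 16) scale) at each of the 21 tested probe sets of the 10 markers (rows), with the 95% confidence interval of the limma fit over 3 brains per genotype. All intervals but that of Fat2 include 0, and those of Car8 at 1457904_at and 1424958_at are the widest.

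Among the granule cell genes, Fat2 had the largest log2 difference. Fat2 encodes a large atypical cadherin found on parallel fibres. The gene lies at chr11:55250609-55337505. Its single probe set, 1457135_at, measured 190.2, 154 and 143 in heterozygous brains and 127, 110.2 and 135 in wild-type brains. Each heterozygous brain lay above each wild-type brain, and the lowest heterozygous value was close to the highest wild-type value. The means were 162 ± 24.6 in heterozygous and 124 ± 12.6 in wild-type brains (SD, n = 3 each), 1.27-fold on the log2(value + 16) scale. The log2 difference was 0.35 (SE 0.13, 95% confidence interval 0.05 to 0.64, adjusted p = 0.956 by limma). The two-sided exact permutation test gave 0.1, and 3 brains against 3 cannot give less. Leaving out single brains moved the log2 difference between 0.24 and 0.42.

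Cbln1 was measured by 3 probe sets, each slightly higher in heterozygous brains in sign. The gene lies at chr8:87468853-87472592. At its brightest, 1423287_at, it measured 1495, 1373 and 1380.4 in heterozygous brains and 1297, 1490.5 and 1196.5 in wild-type brains. The genotypes overlapped, with wild type 3 lowest. The log2 differences were 0.10 (SE 0.09) at 1423287_at, 0.01 (SE 0.09) at 1423286_at and 0.18 (SE 0.09) at 1423288_s_at. At 1423288_s_at the values were 551, 548 and 594 in heterozygous brains and 550.4, 485 and 458 in wild-type brains, so heterozygous 2 fell just below wild type 1. At 1423287_at the 95% confidence interval of the log2 difference was -0.11 to 0.31, and the difference was 0.025 without wild type 3 and 0.181 without wild type 2.

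Cbln3 (chr14:55878920-55884256), which is secreted as a complex with Cbln1, was likewise higher in sign at both probe sets. The dimmer one, 1422911_at, measured 261, 245 and 257 in heterozygous brains and 238, 212 and 215 in wild-type brains, without overlap. Its log2 difference was 0.19 (SE 0.10, interval -0.03 to 0.41, limma adjusted p = 0.956). The brighter one, 1455445_at, measured 1227, 1083 and 1232.5 in heterozygous brains and 1245, 1129.5 and 1049.9 in wild-type brains. There the genotypes overlapped fully, with a log2 difference of 0.05 (SE 0.09, interval -0.15 to 0.25). Without wild type 3 that value was -0.008.

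Neurod1 (chr2:79452637-79456636), a transcription factor that granule cells need to differentiate and survive, varied little between brains. At 1426412_at it measured 1103.5, 1149 and 1128 in heterozygous brains and 1233, 1152 and 1059.8 in wild-type brains. The heterozygous values lay within the wild-type range, and 5.5% of all tested probe sets had a smaller SD over the 6 brains. The log2 difference was -0.02 (SE 0.08, interval -0.21 to 0.16) there and 0.07 (SE 0.10) at 1426413_at, where the 6 values lay between 720.5 and 857 in heterozygous brains and between 659 and 783 in wild-type brains. Its highest value at 1426412_at fell on wild type 1, the brain with high Pomc. At 1426413_at wild type 1 was not the highest, at 775, below heterozygous 3 at 857 and wild type 2 at 783. Summed over 8 tested pituitary and pineal genes of 16 listed, the signal was 4132 to 10491 in heterozygous brains and 4654 to 25231 in wild-type brains, highest in wild type 1. Without that brain the log2 difference of Neurod1 was 0.028, and the part of pituitary RNA in it was not tested.

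Zic1 (chr9:91358058-91365768, overlapping Zic4) and Zic2 (chr14:122475384-122480328) encode zinc finger transcription factors of the granule cell lineage. Zic2 measured 56.5, 51.8 and 57.1 in heterozygous brains and 46.2, 47.1 and 37.1 in wild-type brains at 1421301_at. The groups did not overlap, but the signal was low, and its log2 difference of 0.26 (SE 0.15, interval -0.08 to 0.60, adjusted p = 0.956 by limma) is understated by the pseudocount. Zic1 at 1423477_at measured 2115, 2794 and 1904.5 in heterozygous brains, which held both its highest and its lowest value, and 2469, 2476.5 and 2092 in wild-type brains. Its log2 difference was -0.06 (SE 0.13) there, turning to 0.055 without heterozygous 3, and -0.12 (SE 0.09) at 1439627_at. At 1439627_at it measured 1263, 1249 and 1315 in heterozygous brains and 1523, 1401 and 1249.7 in wild-type brains, and wild type 3 lay within the heterozygous range.

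En2 (chr5:28165696-28172190), a homeobox gene that patterns the midbrain and cerebellum, was lower in sign. It measured 199, 173 and 262 in heterozygous brains and 296, 257 and 235 in wild-type brains at 1418868_at. Heterozygous 3 lay within the wild-type range, and the other 2 heterozygous brains lay below it. The means were 212 ± 45.9 in heterozygous and 263 ± 30.7 in wild-type brains (SD, n = 3 each), and limma gave a log2 difference of -0.30 (SE 0.15, interval -0.63 to 0.02, adjusted p = 0.956). It was -0.181 without heterozygous 2 and -0.459 without heterozygous 3.

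Purkinje cell genes lay close to 0 at their brightest probe sets. Pcp2, which encodes a Purkinje cell protein that modulates G protein signalling, measured 1894.5, 2102 and 1727 in heterozygous brains and 1958, 1761 and 1791 in wild-type brains at 1419085_at. The log2 difference was 0.05 (SE 0.09, interval -0.15 to 0.25), and -0.02 without heterozygous 2. Its other probe sets gave 0.07 (SE 0.10) at 1419084_a_at and 0.20 (SE 0.20) at the dim 1424944_at, where the heterozygous mean of 21.3 and the wild-type mean of 16.5 were near the dim limit. The RefSeq interval of Pcp2, chr8:3623369-3625547, overlaps that of Pet100.

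Calb1 (chr4:15881264-15906709), the gene of the calcium buffer calbindin, had probe sets that disagreed in sign. At the brightest, 1417504_at, it measured 3567, 3230.4 and 3044 in heterozygous brains and 3192, 3227 and 3078 in wild-type brains, a log2 difference of 0.05 (SE 0.08, interval -0.14 to 0.23). Without heterozygous 1 it was -0.013. At 1448738_at it measured 200.3, 202 and 226 in heterozygous brains and 242, 251 and 226.5 in wild-type brains. These values did not overlap, by a margin of less than 1 unit, and the log2 difference was -0.18 (SE 0.10, limma adjusted p = 0.956). The third, 1456934_at, lay at 0.04 (SE 0.11). The fourth, 1458836_at, measured 6.10 to 17.9 in heterozygous brains and 10.6 to 18.3 in wild-type brains and was not tested.

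**Figure D2:**
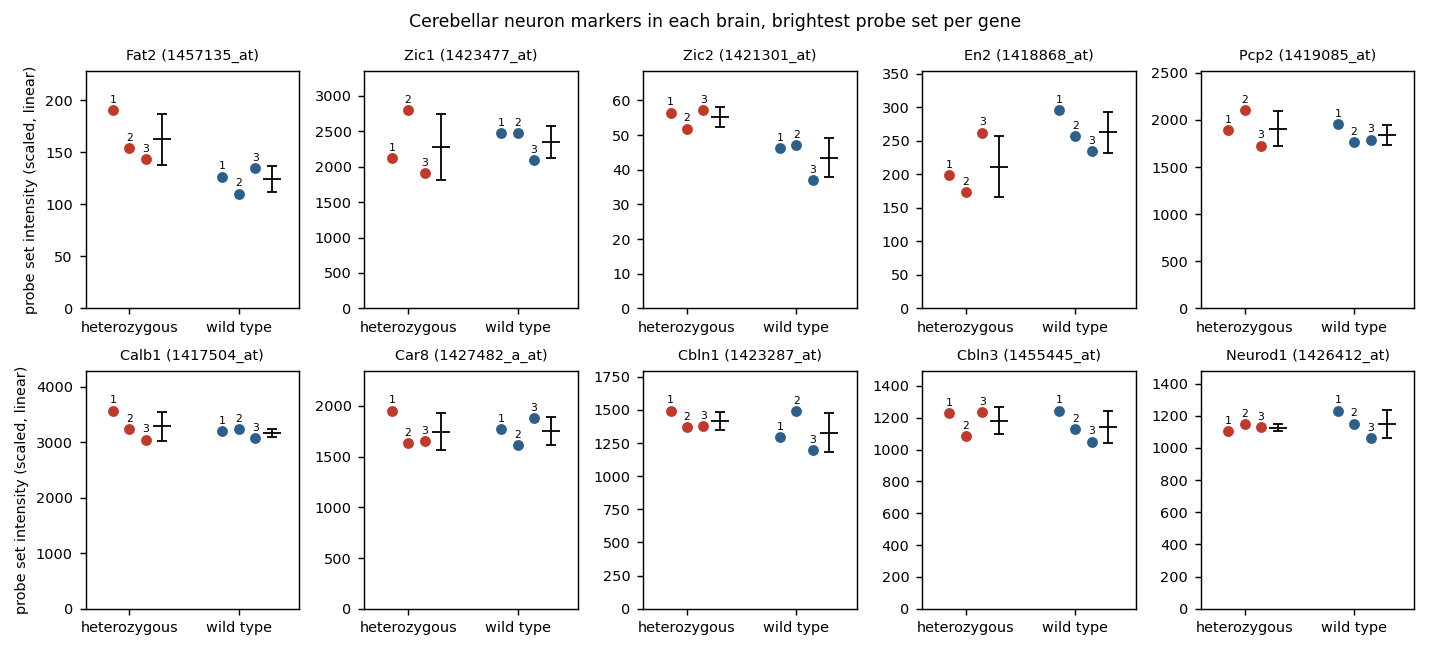
Probe-set intensity (y axis, linear scale from 0, scaled by the authors) of each of the 10 markers at its brightest probe set in 3 heterozygous (red) and 3 wild-type (blue) brains. Small numbers give the replicate, and black bars give mean ± SD (n = 3); the genotypes separate without overlap for Fat2 and Zic2, and they overlap for the other 8 genes.

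Car8 (chr4:8141493-8239041) was split over the brains in a way that crossed the genotypes. Car8 encodes a protein related to carbonic anhydrases that lacks the enzymatic activity, is abundant in Purkinje cells and binds the inositol trisphosphate receptor. At 1424958_at it measured 164, 63.0 and 60.8 in heterozygous brains and 61.5, 59.5 and 169 in wild-type brains. Heterozygous 1 and wild type 3 were thus both high, and the lower of them was 2.60-fold the highest of the other 4 brains. At 1457904_at the values were 183, 44.5 and 48.3 in heterozygous brains and 80.3, 53.9 and 222 in wild-type brains. The same 2 brains were high, the lower of them 2.28-fold the next brain. At the brightest probe set, 1427482_a_at, the values were 1953, 1628.5 and 1650.3 in heterozygous brains and 1768, 1610.2 and 1881 in wild-type brains. The same 2 brains were again highest, the lower of them 1.06-fold the next. 

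Between genotypes the Car8 log2 differences were -0.01 (SE 0.10) at 1427482_a_at, -0.35 (SE 0.48) at 1457904_at and 0.00 (SE 0.37) at 1424958_at, with limma adjusted p from 0.967 to 0.999. At 1427482_a_at the sign turned in 3 of the fits that left out 1 brain, with 0.037 without heterozygous 2, 0.027 without heterozygous 3 and 0.042 without wild type 3. Over the 6 brains the SD at 1457904_at exceeded that of 99.8% of all tested probe sets, and at 1424958_at that of 99.4%. The SD at the brightest probe set, 1427482_a_at, exceeded that of 23.1%.

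Genes near Car8 had a smaller SD than its dimmer probe sets and, at the median, a larger one than its brightest. Within 5 Mb of the start of Car8 on chromosome 4, 65 other tested probe sets represented 29 genes, and their SD over the 6 brains (log2) ranged from 0.05 to 0.45, with a median of 0.16. Car8 had SDs of 0.86 at 1457904_at, 0.64 at 1424958_at and 0.12 at 1427482_a_at. The highest SD in the window was that of Plekhf2, which was dim, with 33.0, 34.9 and 33.1 in heterozygous brains and 8.06, 41.2 and 22.9 in wild-type brains, and wild type 1 was the low brain there. Calb1, also on chromosome 4 at a distance of 7.74 Mb, did not have heterozygous 1 and wild type 3 as its highest brains at any tested probe set. Because the brains fell into 2 separate levels at the dimmer Car8 probe sets, no correlation is given for them.

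**Figure D3:**
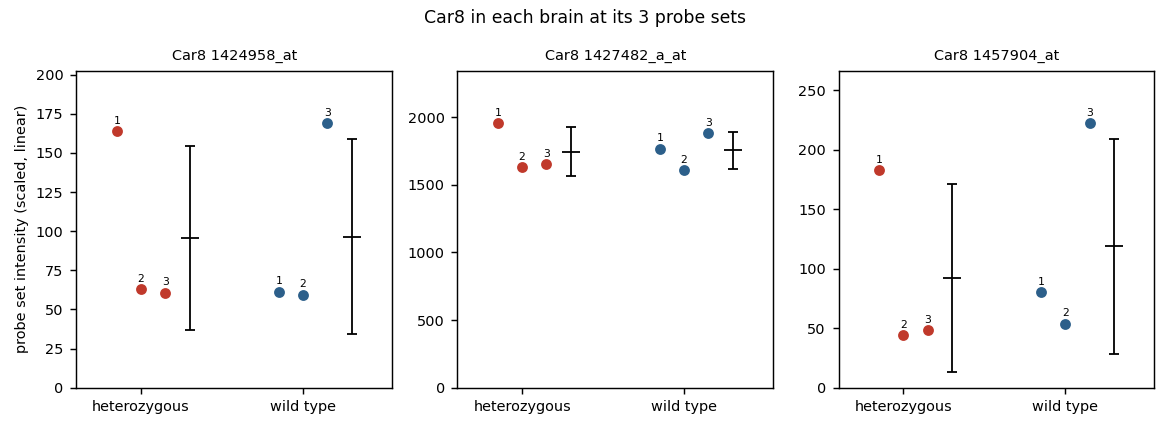
Probe-set intensity of Car8 (y axis, linear scale from 0) at its 3 probe sets in 3 heterozygous (red) and 3 wild-type (blue) brains, numbered by replicate, with mean ± SD (n = 3). Heterozygous 1 and wild type 3 are the 2 highest brains in each panel, more than 2-fold above the others at 1424958_at and 1457904_at.

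At the median, the member probe sets varied less between brains than all tested probe sets, which were not matched to them in intensity. The median SD over the 6 brains was 0.12 (log2) for the 21 member probe sets, and 0.17 for all tested probe sets. Each gene was then represented by its brightest probe set and set against its own mean over the brains. The median deviation of the 10 genes was 0.10, 0.01 and 0.00 in heterozygous 1, 2 and 3, and 0.04, -0.02 and -0.08 in wild type 1, 2 and 3. The extremes of this median were heterozygous 1, where 7 of the 10 genes lay above their mean, and wild type 3, where 2 did. In heterozygous 2, 7 genes lay above their mean as well. Summed over the 10 probe sets, the intensity was 12530 to 13800 in heterozygous and 12555 to 13630 in wild-type brains (rounded to 5 digits).

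Whether the markers moved together over the brains was examined over the 45 pairs of genes. By brightest probe set, 26 of 45 pairs had a Pearson r above 0 over the 6 brains, which is 57.8%, against 50.1% of all pairs of tested genes. The median r was 0.16, and no pair had a two-sided exact permutation p below 0.05 by Pearson's r or by Spearman's rho. The smallest exact permutation p adjusted over the 45 pairs was 0.910. The highest r was 0.75, between Zic1 and Pcp2 (rho 0.66, exact permutation p = 0.0806 and 0.175). It was 0.10 without heterozygous 2 and 3, the brains farthest from the median of Zic1. Leaving out these brains narrows the range of Zic1 and leaves few brains, so the lower value is imprecise. Fat2 and En2 had the lowest r, -0.67 (rho -0.66, exact permutation p = 0.15 and 0.175), and -0.86 without heterozygous 1 and wild type 2. Among the granule cell genes Cbln1, Cbln3, Neurod1 and Fat2 the median r was 0.23 over 6 pairs, and among Pcp2, Calb1 and Car8 it was 0.36 over 3 pairs.

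Probe sets of the same gene were compared in the same way. Apart from Car8, 12 pairs of tested probe sets shared a gene, and their r over the 6 brains ranged from -0.51 to 0.64, with 7 above 0 and 5 below. The highest was that of Cbln3 (rho 0.37, exact permutation p = 0.201 and 0.497, adjusted p = 0.604), with 0.84 without heterozygous 2 and wild type 3. The 2 brightest Pcp2 probe sets, 1419085_at and 1419084_a_at, had an r of -0.14 (rho -0.09), so probe sets of 1 gene did not always order the brains alike.

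When all tested probe sets of a gene were averaged on the log2 scale, the pairs looked different. Of the 45 exact permutation p, 6 lay below 0.05, 1 of them with Car8, whose mean carries the split described above. No pair passed after adjustment. Over 720 orders the exact permutation p of r cannot fall below 0.00139, which for a single pair becomes 0.0625 after adjustment. For rho these limits are 0.00278 and 0.125. A single pair therefore could not pass, however strong its correlation. Fat2 and Pcp2 had an r of 0.97 (rho 1, exact permutation p = 0.00139 and 0.00278, adjusted p = 0.0625 and 0.125), and 0.97 without heterozygous 1 and wild type 2. The Pcp2 mean includes 1424944_at, near the dim limit, and by the brightest Pcp2 probe set alone the r with Fat2 was 0.36. Cbln1 and Cbln3 had an r of 0.86 (rho 0.94, exact permutation p = 0.00694 and 0.0167, adjusted p = 0.156 and 0.375), and 0.75 without heterozygous 1 and wild type 3. By brightest probe sets it was 0.40. Zic2 had an r of 0.91 with Cbln1 and 0.83 with Cbln3 (exact permutation p = 0.0208 and 0.0361, adjusted p = 0.302 for both; rho 0.71 and 0.77, exact permutation p = 0.136 and 0.103), and 0.63 and 0.55 without heterozygous 3 and wild type 3. Zic1 and Calb1 had an r of 0.86 (rho 0.89, exact permutation p = 0.0278 and 0.0333, adjusted p = 0.302 and 0.5), and 0.74 without heterozygous 3 and wild type 1. By brightest probe sets the r of Zic1 and Calb1 was 0.16, and that of Zic2 was 0.74 with Cbln1 and 0.64 with Cbln3.

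**Figure D4:**
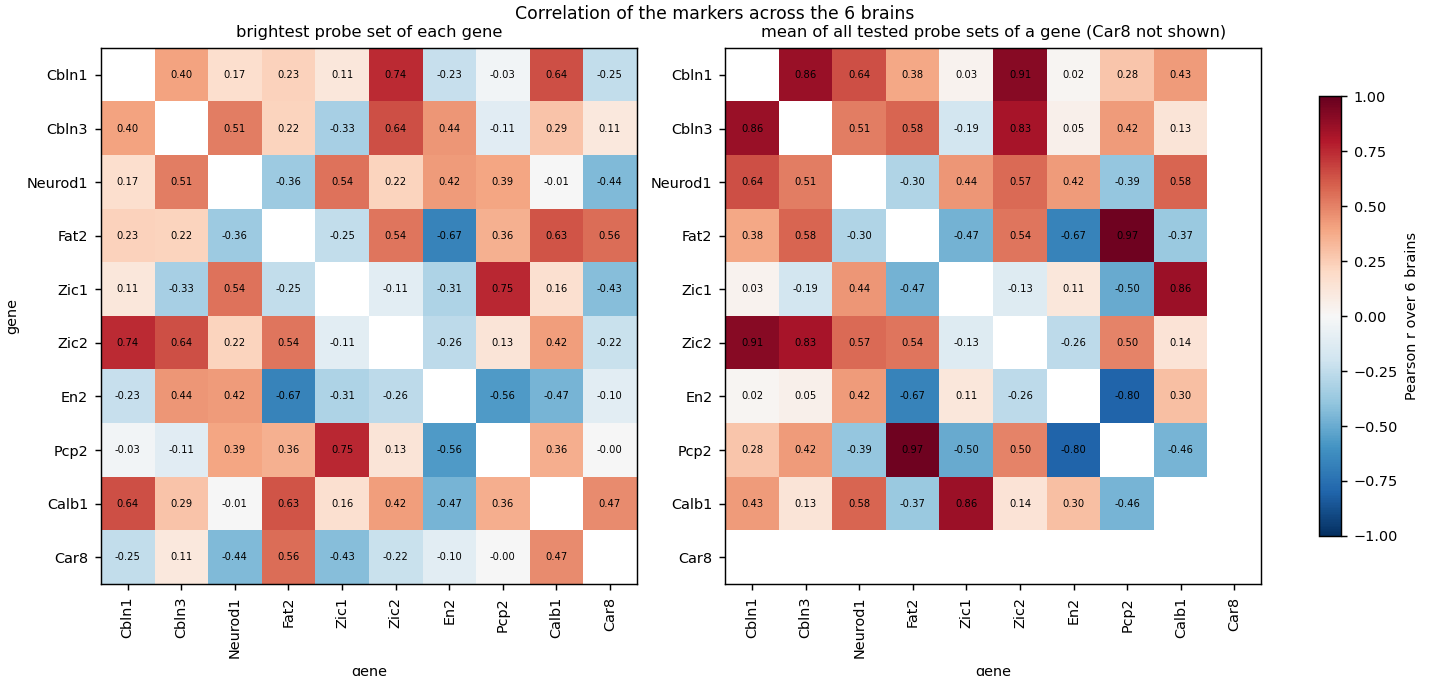
Pearson r over the 6 brains (colour and printed value) between each pair of the 10 markers (rows and columns), by the brightest probe set of each gene (left) and by the mean of its tested probe sets (right, without Car8, whose brains fell into 2 levels). The Cbln1 and Cbln3 pair has 0.40 on the left and 0.86 on the right, and Fat2 and Pcp2 have 0.36 and 0.97.

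Other genes of the cerebellum were taken from lists of granule cell genes, Purkinje cell genes, and genes of cerebellar glia, interneurons and nuclei. Of 85 listed genes, 70 were tested by their brightest probe set and none was called by limma, where 0.00768% of the 13024 genes tested were. In sign 34 were higher and 36 lower (52.0% of all genes were higher), with a median log2 difference of 0.00, and the median over all genes was 0.01. An unadjusted limma p below 0.05 was seen for 2 of the 70 and for 4.38% of all genes. Both were lower in sign. The genotypes did not overlap for 2 of the 70, both lower, and for 10.1% of all genes, 5.19% higher and 4.95% lower. Slc17a7, the vesicular glutamate transporter of granule cells and of cortical neurons, measured 555, 544 and 501 in heterozygous brains and 639.9, 620.3 and 674 in wild-type brains, without overlap, and its log2 difference was -0.27 (SE 0.09, adjusted p = 0.956 by limma). The other gene without overlap, Cep76, measured 175.3, 172 and 165 in heterozygous brains and 179.8, 187 and 175.4 in wild-type brains, and the margin was under 1 unit. Slc1a3, a glutamate transporter of Bergmann glia and other astrocytes, lay at -0.27 (SE 0.12).

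Within the lists, the granule cell genes highest by test statistic were Mab21l1 at a log2 difference of 0.23 (SE 0.16) and Pax6 at 0.14 (SE 0.12), and Synpr at -0.14 (SE 0.09) was lowest after Slc17a7. Among Purkinje cell genes, Aldoc, the zebrin antigen of Purkinje cell stripes and also an astrocyte enzyme, lay at 0.16 (SE 0.09) and the glutamate transporter gene Slc1a6 at 0.17 (SE 0.12). Gad1, the enzyme that makes GABA, lay at -0.12 (SE 0.09) and Foxp2 at -0.13 (SE 0.11). Of the third list, Sorcs3 lay at 0.26 (SE 0.15), Itih3 at 0.13 (SE 0.10) and Lgi2 at -0.17 (SE 0.10). Each of these genes but Slc17a7 overlapped between genotypes. The list medians by brain were small, and wild type 1 was the one brain above 0 in all 3 lists. The 22 granule cell genes had median deviations of -0.04, -0.06 and 0.02 in heterozygous brains and 0.03, 0.04 and -0.06 in wild-type brains. For 30 Purkinje cell genes they were 0.04, -0.02 and -0.04 in heterozygous brains and 0.04, -0.02 and -0.0035 in wild-type brains. For the 18 genes of the third list they were 0.01, 0.05 and -0.03 in heterozygous brains and 0.0052, -0.07 and 0.04 in wild-type brains.

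**Figure D5:**
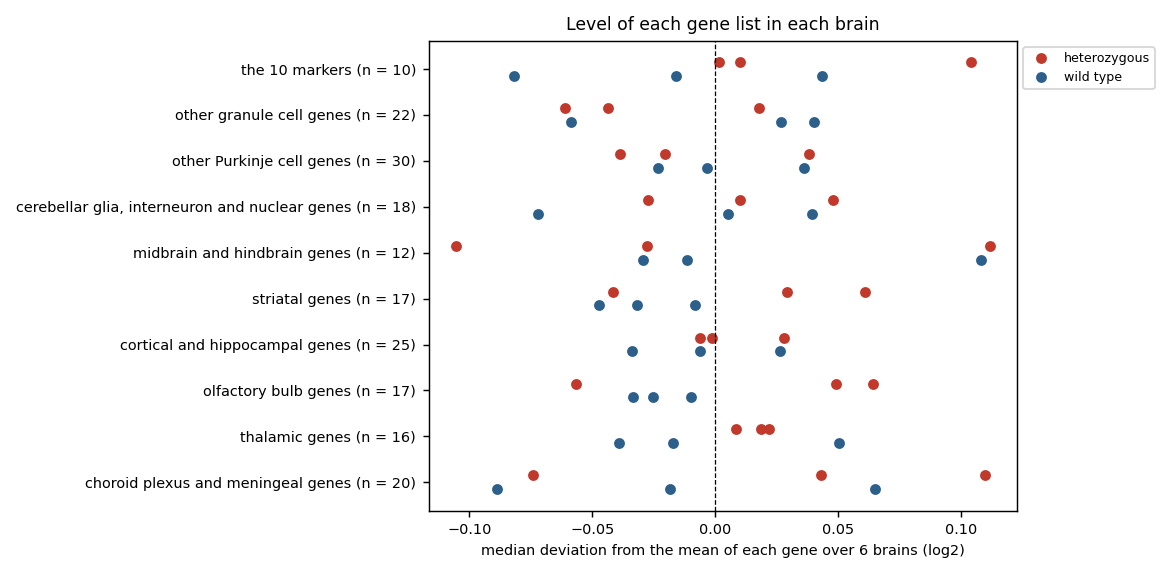
Median over the genes of each list of the deviation from the gene's own mean over the 6 brains (x axis, log2), for the 10 markers, the other cerebellar lists and lists of other brain regions and of choroid plexus and meninges (rows), with 1 point per heterozygous (red, upper) or wild-type (blue, lower) brain. The points of the markers run from -0.08 to 0.10, and those of the 2 genotypes overlap for every list shown.

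A profile of the markers was formed as the mean of their standardised log2 values, which was 0.58, 0.09 and -0.16 in heterozygous brains and 0.34, -0.13 and -0.73 in wild-type brains. The median r of listed genes with it over the 6 brains was 0.15 for granule cell genes, 0.26 for Purkinje cell genes and 0.14 for the third cerebellar list, and 0.05 for all genes tested. It was -0.37 for 16 thalamic genes, -0.32 for 12 midbrain and hindbrain genes, -0.16 for 17 olfactory bulb genes, -0.13 for 17 striatal genes, -0.04 for 20 choroid plexus and meningeal genes, 0.01 for 25 cortical and hippocampal genes and 0.18 for 8 pituitary and pineal genes. A positive median was thus not particular to the cerebellar lists. All these values share the same 6 arrays and their scaling. The lists also share some genes, such as Calb2, which is in the third cerebellar, the cortical and the thalamic list. Of 13606 candidate probe sets of other genes with an SD of at least 0.15, 123 had an r above 0.9, which is 0.904%. The 5 highest were Cnksr3, which is also in the granule cell list, at 0.997, Ngb at 0.994, Kctd6 at 0.990, Atp10d at 0.987 and Nacc1 at 0.982. Cnksr3 measured 268, 229 and 202 in heterozygous brains and 252, 210.2 and 167 in wild-type brains, so heterozygous 1 was highest and wild type 3 lowest, as in the averaged profile it was selected to follow. Of the 10 markers at their brightest probe sets, 4 were highest in heterozygous 1 and 4 were lowest in wild type 3.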

How the data were processed

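Whole-brain RNA of 3 heterozygous and 3 wild-type mice was labelled with biotin after oligo(dT) priming, per the labels' protocols, which favours the 3′ ends of transcripts, and hybridised to 1 array per brain. The deposited values are linear probe-set intensities. The authors had scaled them: the mean of the central 96% of values is 150.0 on every array, with medians of 31.2 to 34.5. The software, probe positions and scan dates are not given in the sources used here. No batch could therefore be examined.

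Of 45101 probe sets, 64 controls were set aside. Of the rest, 34945 had 1 gene in the platform annotation, 932 several and 9160 none. Symbols and positions came from RefSeq (GRCm38.p6, 34741 probe sets matched), as did the promoter sequences. The RefSeq promoter entry of Fat2 starts inside the gene interval and was not used. Intensities were transformed as log2(value + 16), which understates changes of dim probe sets. Probe sets at or below the 40th percentile of mean log2 value were removed. Genotypes were compared with limma 3.58.1 (R 4.3.3, lmFit and eBayes with intensity trend, all 6 arrays, no covariate), with Benjamini-Hochberg adjustment over the 27022 probe sets left. The steps were tested on simulated data. Two-sided exact permutation tests used all splits of 3 against 3 brains, or all 720 orders of the brains for correlations. The number of arrays limits the precision.

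The rule named every member probe set, the 2 highest and 2 lowest genes of each other list by moderated t, and the 5 genes most like the mean profile. The members and lists were chosen with earlier results of these data known. The split of Car8 and the genes near it were examined after the values of Car8 were seen. Alternatives covered normalization, pseudocount, dim filter, eBayes settings, array weights, a replicate block and leaving out each array.

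Same-numbered brains of the genotypes were not treated as pairs. The correlations of their deviations from the genotype means were 0.0823, 0.202 and -0.0183 for numbers 1, 2 and 3. The title of 1 heterozygous sample carries no number, and that brain was numbered 1 here. The labels, which call the wild-type mice littermates, do not say which numbers share a litter or day.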

Additional observations from a re-analysis of the deposited data

How the results depend on the processing

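No member probe set and none of the other 70 cerebellar genes was called by limma under any of the 16 alternatives. The count of member probe sets with an unadjusted limma p below 0.05 ranged from 0 to 2, and the lowest limma adjusted p of a member at its brightest probe set was 0.664. Over all probe sets, the 4 calls became 14 without heterozygous 1, 1 without heterozygous 2, 1 without a dim filter, 1 without the intensity trend and 2 without heterozygous 3 or wild type 3. The number of member pairs with r above 0 was 26, and 20 to 30 under the alternatives. No pair passed after adjustment under the 8 alternatives that kept all brains, and pairs were not tested with a brain left out. Of 159 log2 differences of single members at the brightest probe set, 151 kept their sign. The dim filters, the eBayes settings and the replicate block cannot change a log2 difference, so their values kept the sign by construction. The 8 that turned all came from leaving out 1 brain. Over such fits the log2 difference ranged from -0.219 to 0.055 for Zic1, -0.02 to 0.12 for Pcp2, -0.013 to 0.1 for Calb1, -0.093 to 0.042 for Car8, -0.008 to 0.113 for Cbln3 and -0.08 to 0.028 for Neurod1. The signs of Fat2, En2 and Cbln1 held in all 16, including the settings that cannot change them. That of Zic2 held wherever it was tested, but it falls below the dim filter at the 60th percentile and has no value there. With the replicate number as a block, 0 member probe sets were called and 5 of all tested probe sets, against 4 without it. Of the 6 brains, 3 correlated best with their own number, and the number of heterozygous 1 was assigned here, not given by its label. In pairs of genes, orders of brains within a genotype number 36 and within a replicate number 8. With 8 orders no pair could pass the threshold of 0.05, so that outcome was fixed in advance. With 36 orders a pair could hardly pass after adjustment. Even over all 720 orders, a single pair could not pass after adjustment over the 45 pairs. Median centring shifted the median log2 difference of all probe sets to -0.03, from 0.01. The number of arrays, 3 per genotype, limits all of these comparisons.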

Other observations

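Relatives of the markers were measured as well, each by its brightest tested probe set. None of 20 was called by limma, where 0.00768% of all genes tested were. In sign 10 were higher and 10 lower in heterozygous brains (52.0% of all genes were higher), with a median log2 difference of 0.00. The genotypes did not overlap for 1 of the 20 on the higher side and 1 on the lower side, where 10.1% of all genes did not overlap. Cbln2 and Cbln4, the cerebellins found mainly outside the cerebellum, lay at 0.06 (SE 0.17) and 0.09 (SE 0.12). Zic4 and Zic5 lay at -0.05 (SE 0.14) and -0.18 (SE 0.13), and Calb2, the gene of calretinin, at 0.09 (SE 0.09). The carbonic anhydrase genes Car4 and Car11 were the highest relatives by test statistic, at 0.11 (SE 0.09), without overlap between genotypes, and 0.12 (SE 0.10), with overlap. Neurod6, a transcription factor of cortical and hippocampal pyramidal neurons, was lowest, averaging 323 in heterozygous brains and 389.7 in wild-type brains without overlap, and its log2 difference was -0.27 (SE 0.11, adjusted p = 0.956 by limma). The other cadherins Fat1, Fat3 and Fat4 lay at 0.03 (SE 0.09), -0.02 (SE 0.10) and -0.06 (SE 0.30), and Fat2 at 0.35 (SE 0.13). The 95% confidence interval of Fat4, -0.72 to 0.60, includes the value of Fat2, and those of Fat1 and Fat3 do not. These differences between genes were not tested.

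Markers of other brain regions gave the background in the same brains. No gene of these lists was called by limma, where 0.00768% of all genes tested were. Among 25 cortical and hippocampal genes the median log2 difference was 0.00, and 3 genes were higher and 1, Neurod6, lower at an unadjusted limma p below 0.05, which 4.38% of all genes had. The genotypes did not overlap for 4 of the 25 on the higher side and 2 on the lower side, where 10.1% of all genes did not overlap. Summed over the list, the signal was 16035 to 16499 in heterozygous brains and 14670 to 15392 in wild-type brains, also without overlap. The sums of all other lists overlapped, and this sum was not tested. Bright genes weigh most in it, among them Camk2a, with means of 2506 in heterozygous and 1786 in wild-type brains. Of the 25 genes, 13 were higher and 12 lower in sign, and the median deviations by brain overlapped. Camk2a, a calcium-dependent kinase of excitatory forebrain synapses, lay at 0.47 (SE 0.12), Lmo4 at 0.20 (SE 0.09) and Crym at -0.18 (SE 0.09), each without overlap between genotypes. Of 17 olfactory bulb genes (median 0.02), Lbhd2 lay at 0.46 (SE 0.14) and Doc2g at 0.29 (SE 0.14), both without overlap. Omp, the marker of olfactory sensory neurons, lay at -0.54 (SE 0.17) with means of 38.2 in heterozygous and 63.7 in wild-type brains, also without overlap, and Dlx1 at -0.15 (SE 0.11). Striatal genes had a median of 0.04 over 17 genes, with Drd2 at 0.20 (SE 0.13), Rasd2 at 0.19 (SE 0.16), Ido1 at -0.21 (SE 0.14) and Tac1 at -0.14 (SE 0.10). Thalamic genes had a median of 0.08 over 16 genes, with Prkcd at 0.17 (SE 0.12), Tnnt1 at 0.30 (SE 0.21), Gpr151, without overlap, at -0.28 (SE 0.17) and Tcf7l2 at -0.20 (SE 0.13). The median was -0.04 over 12 midbrain and hindbrain genes, with Th at 0.14 (SE 0.13), Gata2 at 0.14 (SE 0.14), Ddc at -0.20 (SE 0.12) and Tph2 at -0.25 (SE 0.17). For choroid plexus and meninges it was -0.02 over 20 genes, with Foxc1, without overlap, at 0.32 (SE 0.16), Col3a1 at 0.26 (SE 0.17), Mgp at -0.20 (SE 0.11) and Dcn at -0.17 (SE 0.11). The 8 pituitary and pineal genes had a median of -0.67, with Chgb at 0.02 (SE 0.09), Chga at 0.03 (SE 0.13), Pomc at -2.09 (SE 1.03) and Prl at -2.16 (SE 1.44), where wild type 1 was the highest brain for both hormone genes.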
